A study of Mus musculus with 9 samples.

Results

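Transcripts of costimulatory receptors were followed in CD8+ T cells, which recognise and kill virus-infected and tumour cells. The members were 9 receptor genes chosen by symbol: Cd28, Icos, Cd27, Tnfrsf4, Tnfrsf9, Tnfrsf18, Cd226, Slamf6 and Cd2. Of these, 7 had a row among the 18188 genes of the deposited tables, and Cd27 and Tnfrsf18 were not analysed here. Poly(A) RNA from splenic CD8+ T cells of the mouse had been sequenced in 4 libraries with a knockout of Rig1 (Rig1 KO) and in 5 wild-type (WT) libraries. RIG-I, the product of that gene, is a cytosolic sensor of viral RNA, and the title of the study describes it as a checkpoint inside the cell that restrains the response of CD8+ T cells to tumours. Strain, age, stimulation, the way the knockout was made and the way the cells were purified are not given in any source used here. No label ties the numbered libraries to different animals, so the spread that p-values rest on may be that of technical repeats.

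A T cell needs a second signal besides that of its antigen receptor to divide and survive, and costimulatory receptors supply it. CD28 and ICOS are immunoglobulin-family receptors that recruit phosphoinositide 3-kinase. CD27, OX40 (Tnfrsf4), 4-1BB (Tnfrsf9) and GITR (Tnfrsf18) belong to the tumour necrosis factor receptor family and signal through TRAF adaptors to NF-kB. CD2, SLAMF6 and CD226 bind surface proteins on neighbouring cells and couple adhesion to signalling. Several of these receptors compete for their ligands with inhibitory receptors: CTLA-4 binds CD80 and CD86 as CD28 does, and TIGIT and CD96 bind CD155 (Pvr) as CD226 does.

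The loop that contacts the shared ligands is shown first, because the transcripts of CD28 and CTLA-4, which carry the same loop, were both lower in Rig1 KO. The stretches below come from the GENCODE M21 transcripts on GRCm38, plus strand. The capitals mark the codons of MYPPPY in Cd28 and Ctla4 and of the FDPPPF stretch at the same place in Icos. They lie in coding exon 2 at chr1:60763257-60763310 for Cd28, chr1:60912695-60912748 for Ctla4 and chr1:60993965-60994018 for Icos.
Cd28 loop: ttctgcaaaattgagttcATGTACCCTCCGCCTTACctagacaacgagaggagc
Ctla4 loop: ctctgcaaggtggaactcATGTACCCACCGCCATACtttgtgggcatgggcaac
Icos loop: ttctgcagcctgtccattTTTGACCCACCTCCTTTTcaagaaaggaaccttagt

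The same 3 genes carry a tyrosine motif in the cytoplasmic tail that binds phosphoinositide 3-kinase when phosphorylated. The capitals below mark its codons, YMNM in Cd28, YMFM in Icos and YVKM in Ctla4, all in exon 4. The stretches lie at chr1:60769675-60769722, chr1:60995542-60995589 and chr1:60914628-60914675 of GRCm38, plus strand.
Cd28 tail: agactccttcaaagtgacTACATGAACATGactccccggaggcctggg
Icos tail: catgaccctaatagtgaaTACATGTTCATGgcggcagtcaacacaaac
Ctla4 tail: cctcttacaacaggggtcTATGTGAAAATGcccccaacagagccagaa

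The libraries held between 15496262 and 17893558 reads, as recovered from the deposited TPM values (reads per unit of gene length, scaled so that each library has the same total of 1000000). Ddx58, the gene for RIG-I, stood at 33.3 ± 2.04 TPM in Rig1 KO and 65.1 ± 2.0 TPM in WT (SD over 4 and 5 libraries), so Rig1 KO kept 51.1% of the WT level. T cell markers were high in every library: the summed TPM of 7 T cell identity genes ran from 6502 to 7121 in Rig1 KO and from 4655 to 5385 in WT. Sets of genes from other cells differed as well. Summed B cell markers (9 genes) ran from 92.8 to 199 TPM in Rig1 KO and from 165 to 1159 in WT, and NK cell markers (8 genes) from 267 to 318 in Rig1 KO and from 80.4 to 227 in WT. Of the 8 NK cell genes 5 rose, and Tyrobp, Fcer1g and Klra4 were not called. Summed basophil, mast cell and neutrophil markers (8 genes) ran from 349 to 607 TPM in Rig1 KO and 121 to 351 in WT. The genes of that sum did not all move together: 6 rose, and the 2 genes S100a8 and S100a9 fell. Their log2 fold changes were -1.27 for S100a8 and -1.28 for S100a9. Myeloid and dendritic cell markers (11 genes) ran from 825 to 955 TPM in Rig1 KO and from 428 to 1006 in WT. Red cell and platelet genes (7 genes) ran from 206 to 353 TPM in Rig1 KO and from 248 to 387 in WT, a sum of genes that moved in opposite directions. Of these 7 genes, 3 haemoglobin genes rose and the 3 platelet genes Pf4, Ppbp and Itga2b fell. Pf4 averaged 7.41 TPM in Rig1 KO and 77.0 in WT, and Ppbp 15.9 in Rig1 KO and 103 in WT. The haemoglobin gene Hbb-bs averaged 101 TPM in Rig1 KO and 34.9 in WT. CD4 and regulatory T cell markers (9 genes) ran from 29.8 to 32.5 TPM in Rig1 KO and from 30.6 to 88.2 in WT. No marker of any of these lists was at 0 in every library of a group. Their part in the results on the receptors was examined only through the T cell and B cell marker alternatives given below.

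Among the 6 members tested, Cd28 fell, Slamf6 and Cd2 rose, and Icos, Tnfrsf4 and Cd226 did not pass the test. The test was limma on log2(TPM + 1), adjusted by Benjamini-Hochberg over all 10540 genes with at least 1 TPM in at least 4 libraries, at a threshold of 0.05. It called 33.5% of all tested genes higher and 12.2% lower in Rig1 KO. The members' 2 rises and 1 fall of 6 stand close to those shares. The median log2 fold change was 0.03 over the 6 tested members and 0.13 over all tested genes.

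**Figure D1:**
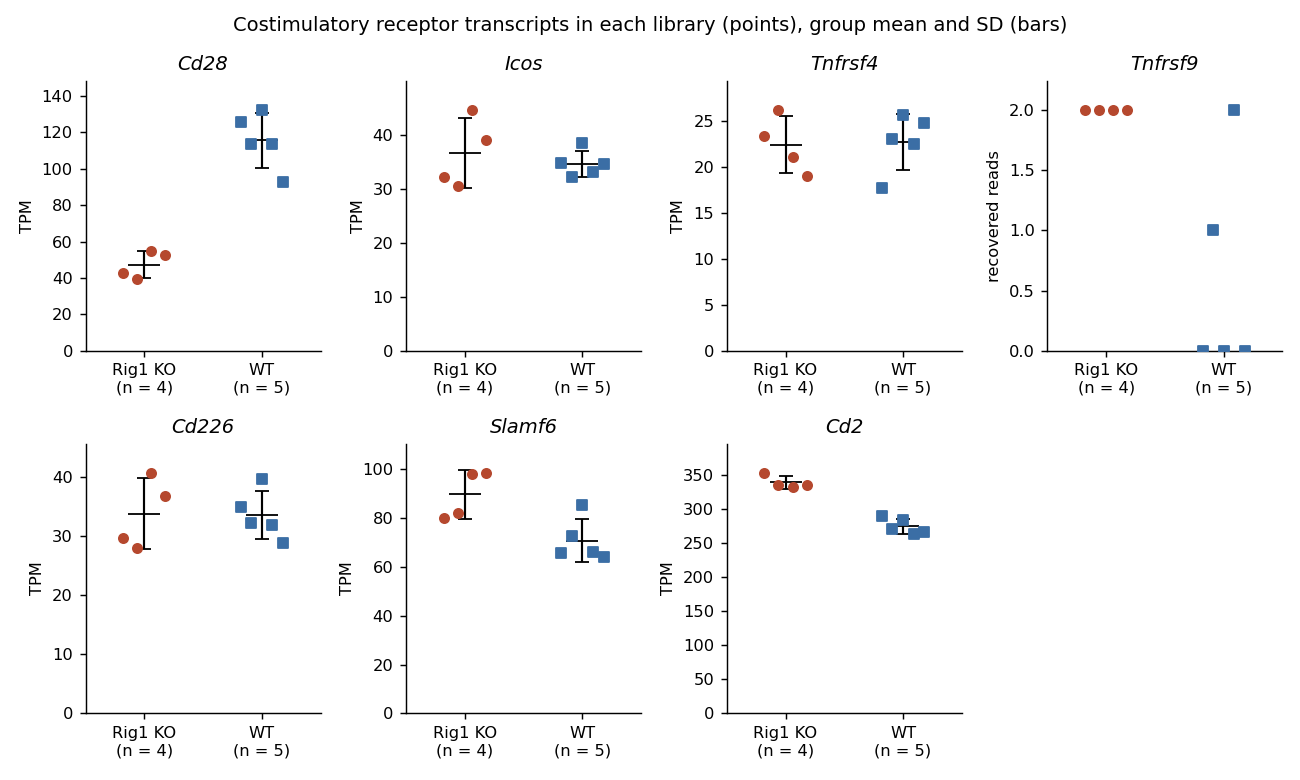
Each point is a library, with Rig1 KO (circles, n = 4) left of WT (squares, n = 5); the vertical axes give TPM, and recovered reads for Tnfrsf9, and the bars give mean and SD. The Cd28 points of Rig1 KO all lie below those of WT, the Cd2 points of Rig1 KO all lie above, and the other tested members overlap.

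Cd28, the main costimulatory receptor of naive T cells, was the member that moved most. It had 42.6, 39.3, 54.9 and 52.4 TPM in Rig1 KO libraries 1 to 4, against 125.6, 113.7, 132.4, 113.6 and 93.0 TPM in WT libraries 1 to 5. The highest Rig1 KO library lay well under the lowest WT library, so the groups did not overlap. The reads behind these values numbered 3304 to 3986 in Rig1 KO and 7351 to 11261 in WT. Mean Cd28 was 47.3 ± 7.51 TPM in Rig1 KO and 115.6 ± 15.01 TPM in WT (SD), 2.45-fold lower in Rig1 KO. On the log2 scale it fell by 1.28 (SE 0.12, 95% confidence interval -1.54 to -1.01, adjusted p = 1.73e-05, limma). In bulk RNA, fewer cells that express a gene and less RNA per cell cannot be told apart. Groups without overlap in either direction made up 38.1% of all tested genes.

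By the root-mean-square difference of centred log2(TPM + 1) over the 9 libraries, the genes with profiles closest to Cd28 were Coq10b (0.132), Arf4 (0.134) and Sgo1 (0.142), out of 10539 compared. Coq10b, which acts with coenzyme Q in mitochondria, averaged 8.29 ± 0.744 TPM in Rig1 KO and 21.1 ± 1.77 TPM in WT. Arf4, a small GTPase of the Golgi, averaged 31.7 ± 2.68 TPM in Rig1 KO and 75.7 ± 3.79 TPM in WT. Sgo1, which protects sister chromatid cohesion, averaged 5.72 ± 1.09 TPM in Rig1 KO and 13.2 ± 1.38 TPM in WT. Their log2 fold changes were -1.25 for Coq10b, -1.23 for Arf4 and -1.09 for Sgo1, against -1.28 for Cd28.

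Icos, the CD28 relative that is induced on activation and sustains helper and effector responses, had 32.2, 30.6, 44.6 and 39.1 TPM in Rig1 KO, against 34.9, 32.2, 38.5, 33.1 and 34.6 TPM in WT. The lowest and the highest library were both Rig1 KO, and the groups overlapped. The log2 fold change was 0.06 (95% confidence interval -0.17 to 0.30, adjusted p = 0.643, limma), which leaves room for changes of either sign.

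Among the measured protein-coding genes, Cd28, Ctla4 and Icos follow each other on chromosome 1 in the RefSeq order of GRCm38, between Raph1 and Pard3b. Ctla4, the inhibitory receptor that competes with CD28, had 4.76, 4.97, 7.59 and 5.24 TPM in Rig1 KO, against 58.8, 48.0, 57.6, 59.7 and 55.6 TPM in WT. No Rig1 KO library came near the WT range. Ctla4 changed by -3.12 on the log2 scale (SE 0.118, adjusted p = 2.02e-08, limma). Of the outer neighbours, Raph1, which links Ras signals to actin, was low in level and rose by a log2 change of 0.38 (adjusted p = 0.0102, limma), and Pard3b did not reach the level needed for testing. Neighbours at this locus therefore included a gene that rose, 2 that fell and Icos, which did not pass the test.

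Because CD28 and CTLA-4 share CD80 and CD86, their transcripts were also set against each other within each library, which removes the scaling of the library. The ratio of Cd28 to Ctla4 TPM was 8.94, 7.91, 7.23 and 9.996 in Rig1 KO, against 2.14, 2.37, 2.30, 1.90 and 1.67 in WT. Every Rig1 KO library had the higher ratio. The log2 ratio of TPM + 1 was 2.87 ± 0.178 in Rig1 KO and 1.03 ± 0.206 in WT (SD, n = 4 and 5), a difference of 1.84. The two-sided exact permutation p over 126 splits was 0.0159, the smallest that 4 against 5 libraries can give, and 0.0238 after adjustment over the 3 ratios examined. The level of a ratio depends on the gene lengths behind TPM, and only its difference between groups is compared. Both transcripts fell, and the fall of Ctla4 was the larger.

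Of the tumour necrosis factor receptor members, Tnfrsf4 (OX40, a receptor for OX40 ligand on antigen-presenting cells) had 23.4, 26.2, 21.1 and 19.1 TPM in Rig1 KO, against 17.7, 23.0, 25.7, 22.6 and 24.8 TPM in WT. The groups overlapped along nearly their whole range. These values rest on 69 to 108 reads per library in Rig1 KO and 74 to 107 in WT, far fewer than for Cd28. The log2 fold change was -0.02 (95% confidence interval -0.27 to 0.24, adjusted p = 0.920, limma).

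Tnfrsf9 (4-1BB, which appears on T cells after activation) was near the limit of detection and was not tested. It had 2 reads in each of the 4 Rig1 KO libraries, against 0, 1, 0, 2 and 0 reads in WT libraries 1 to 5. Every library lay under 3 reads, the count that a value of 0 still allows, so no fold change is given and no difference was detectable at this depth.

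Cd226 (DNAM-1), an activating receptor for CD155 and CD112, had 29.6, 28.0, 40.7 and 36.8 TPM in Rig1 KO, against 34.9, 32.2, 39.7, 31.9 and 28.8 TPM in WT. The lowest and the highest library both belonged to Rig1 KO. The log2 fold change was 0.00 (95% confidence interval -0.26 to 0.27, adjusted p = 0.984, limma). Rig1 KO libraries 3 and 4 were higher than libraries 1 and 2 for Cd226, as they were for Cd28, Icos and Slamf6, but not for Cd2 or Tnfrsf4.

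Slamf6 (Ly108) is a self-binding receptor of the SLAM family whose tail recruits SAP, the product of Sh2d1a. The capitals below mark the codons of its 2 tyrosine motifs, TVYAQV and TIYSIV, taken from the same transcripts; the first spans the junction of exons 6 and 7 with its flanks, and the second that of exons 7 and 8.
Slamf6 motif 1: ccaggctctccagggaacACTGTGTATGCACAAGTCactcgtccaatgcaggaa
Slamf6 motif 2: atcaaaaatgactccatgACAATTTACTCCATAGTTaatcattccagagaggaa

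Slamf6 had 80.2, 82.1, 98.2 and 98.6 TPM in Rig1 KO, against 65.6, 72.6, 85.4, 66.0 and 64.0 TPM in WT. The groups overlapped through WT 3, which lay above Rig1 KO libraries 1 and 2. Mean Slamf6 was 89.7 ± 9.99 TPM in Rig1 KO and 70.7 ± 8.83 TPM in WT (SD), a log2 fold change of 0.34 (SE 0.098, adjusted p = 0.0161, limma). The call was lost without Rig1 KO library 3 (adjusted p = 0.0503, limma) and without library 4 (adjusted p = 0.0535, limma), and under median ratio scaling, where the log2 fold change was 0.22 (adjusted p = 0.0721, limma). In all it was lost under 7 of 20 alternatives.

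Cd2, an adhesion receptor that binds CD48 in the mouse, had 353.7, 335.5, 332.8 and 335.0 TPM in Rig1 KO, against 289.3, 271.0, 283.5, 263.9 and 266.2 TPM in WT. The lowest Rig1 KO library lay above the highest WT library. Mean Cd2 was 339 ± 9.69 TPM in Rig1 KO and 275 ± 11.1 TPM in WT (SD), a log2 fold change of 0.30 (SE 0.047, adjusted p = 0.000468, limma).

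The T cell identity genes moved in the same direction as Cd2 and Slamf6: 6 of the 7 tested rose and none fell, against 33.5% and 12.2% of all tested genes. Their median log2 fold change was 0.46, and Cd8a, a chain of the CD8 coreceptor, rose by 0.55 (adjusted p = 0.000111, limma). Under median ratio scaling 4 of the 7 T cell identity genes rose and 1 fell, against 23.7% and 21.4% of all tested genes. With the B cell markers as a covariate 3 of the 7 rose and none fell. When TPM was scaled to these T cell genes, the log2 fold change was -0.04 for Cd2 (adjusted p = 0.607, limma) and 0.00 to 2 decimals for Slamf6 (adjusted p = 1.00, limma). Under the same scaling Icos stood at -0.28 (adjusted p = 0.0449, limma) and Cd226 at -0.34 (adjusted p = 0.0189, limma), so that 3 of the 6 members fell and none rose. That scaling called 41.7% of all tested genes lower and 7.58% higher. With the B cell markers as a covariate, which called 5.79% of all tested genes lower and 21.5% higher, Cd2 stood at 0.22 (adjusted p = 0.0574, limma) and Slamf6 at 0.19 (adjusted p = 0.393, limma). Scaling to T cell genes was chosen after the data had been seen, and it moves the median of all tested genes to -0.22. The fall of Cd28 passed the test under all 20 alternatives examined, with log2 fold changes from -1.62 under T cell scaling to -1.19 without Rig1 KO library 2.

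**Figure D2:**
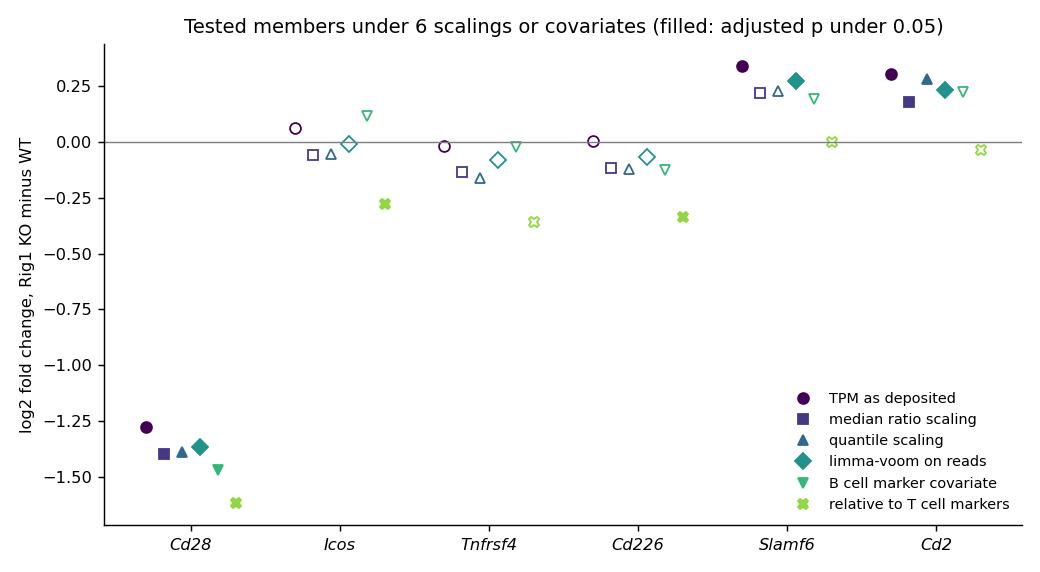
The 6 tested members are on the horizontal axis and the log2 fold change (Rig1 KO minus WT) on the vertical axis, with a symbol for each of 6 ways of scaling or adjusting and filled symbols for an adjusted p under 0.05. Cd28 lies between -1.62 and -1.28 in all 6, while Slamf6 and Cd2 lie above 0 in the first 5 and at or just below 0 relative to the T cell markers.

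Compared per kilobase of exon and per 1000000 recovered reads, the order of the members differed between the groups. Cd2 was the most abundant, with 308 ± 21.9 in Rig1 KO and 262 ± 11.7 in WT (SD, n = 4 and 5). Next among Rig1 KO libraries, Cd226 (61.8 ± 7.74) stood above Cd28 (53.1 ± 5.69) in each of the 4, though the ranges over libraries overlapped. In WT, Cd28 (137 ± 18.2) stood above Cd226 (64.8 ± 7.97) in each of the 5 libraries, without overlap. Below them came Slamf6, with 39.2 ± 2.52 in Rig1 KO and 32.6 ± 4.24 in WT, then Icos, with 20.6 ± 2.59 in Rig1 KO and 20.6 ± 1.33 in WT. Tnfrsf4 followed with 5.28 ± 0.982 in Rig1 KO and 5.58 ± 0.759 in WT, and Tnfrsf9 came last. The exon lengths are those of GRCm38, and whether reads in introns were counted is not known, so this order between genes may shift with long introns.

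Some ligands of the members, among them CD80, CD86 and OX40 ligand, are carried mainly by antigen-presenting cells. Which cells carried the ligand transcripts here was not tested. Of 10 ligand genes 7 were tested: 3 rose, none fell and 4 did not pass the test, against 33.5% higher and 12.2% lower of all tested genes. The median log2 fold change was 0.37, against 0.13 over all tested genes. Under median ratio scaling 2 of the 7 rose and none fell, against 23.7% and 21.4% of all tested genes. Scaled to T cell genes 1 rose and 2 fell, against 7.58% and 41.7% of all. Cd48, the ligand of CD2 in the mouse, had 151.9, 139.2, 162.2 and 163.1 TPM in Rig1 KO, against 73.4, 74.0, 90.0, 73.3 and 73.6 TPM in WT. The groups were far apart and Cd48 rose by a log2 change of 1.00 (SE 0.076, adjusted p = 3.51e-06, limma). Tnfsf9, the ligand of 4-1BB, averaged 4.78 ± 2.20 TPM in Rig1 KO and 2.08 ± 0.946 TPM in WT (log2 fold change 0.89, adjusted p = 0.0218, limma). These values rest on only 10 to 25 reads per library in Rig1 KO and 4 to 12 in WT. Without Rig1 KO library 4, which was the highest, Tnfsf9 stood at 0.66 (adjusted p = 0.0660, limma). The call of Tnfsf9 was also lost with the B cell covariate (adjusted p = 0.111, limma), relative to T cell markers (0.113), with limma-voom (0.0510) and without a filter (0.0527). Cd86 averaged 12.4 ± 2.44 TPM in Rig1 KO and 9.29 ± 1.36 TPM in WT (log2 fold change 0.37, adjusted p = 0.0425, limma), and lost its call without any of 5 single libraries (Rig1 KO 3 and 4, WT 1, 2 and 3), with adjusted p up to 0.122 (limma). In all Cd86 lost its call under 9 of 20 alternatives.

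Cd80, the other CD28 ligand, averaged 1.76 ± 0.378 TPM in Rig1 KO and 1.87 ± 0.365 TPM in WT (log2 fold change -0.06, adjusted p = 0.746, limma). Pvr (CD155) averaged 27.4 ± 4.70 TPM in Rig1 KO and 23.9 ± 1.42 TPM in WT (log2 fold change 0.18, adjusted p = 0.178, limma), with an adjusted p of 0.0351 (limma) without Rig1 KO library 2. Tnfsf18, the ligand of GITR, averaged 1.28 ± 0.517 TPM in Rig1 KO and 0.641 ± 0.354 TPM in WT (log2 fold change 0.47, adjusted p = 0.0839, limma), and passed without Rig1 KO library 2 (adjusted p = 0.0224, limma). Of these 3 genes, none passed with all libraries and TPM as deposited. Relative to T cell markers Cd80 stood at -0.40 (adjusted p = 0.0423, limma). Icosl, which B cells carry, ran from 11.7 to 18.9 TPM in Rig1 KO and from 12.8 to 44.0 TPM in WT. The highest value was that of WT 5, which also had the highest sum of B cell markers. The log2 fold change of Icosl was -0.61 (adjusted p = 0.108, limma). It was -0.81 without WT 3 (adjusted p = 0.0252, limma), -0.76 under quantile scaling (adjusted p = 0.0486, limma) and -0.95 relative to T cell markers (adjusted p = 0.0286, limma). With the B cell markers as a covariate it was 0.58 (adjusted p = 0.0438, limma). Cd70, Tnfsf4 and Nectin2, the ligands of CD27, OX40 and CD226, did not reach the level needed for testing.

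Of the 5 inhibitory receptors that share a ligand with a member, 3 rose and 2 fell, against 33.5% and 12.2% of all tested genes. The median log2 fold change of the 5 was 0.27. Under median ratio scaling 1 rose and 2 fell, against 23.7% and 21.4% of all tested genes. Scaled to T cell genes 1 rose and 2 fell, against 7.58% and 41.7% of all. Besides Ctla4, Tigit fell: it had 6.41, 7.58, 9.78 and 7.78 TPM in Rig1 KO, against 14.95, 10.4, 13.8, 14.8 and 19.3 TPM in WT. The groups did not overlap, and Tigit changed by -0.81 on the log2 scale (SE 0.156, adjusted p = 0.00180, limma), or -0.43 with the B cell markers as a covariate (adjusted p = 0.181, limma). Pvrig, which competes with CD226 for CD112, had 32.0, 20.7, 30.2 and 38.4 TPM in Rig1 KO, against 14.5, 7.30, 11.2, 14.0 and 11.2 TPM in WT, and rose by a log2 change of 1.31 (adjusted p = 0.000452, limma). Its lowest Rig1 KO library lay above every WT library. The Pvrig values rest on 49 to 82 reads per library in Rig1 KO and 17 to 36 in WT. Cd244a (2B4), which binds CD48 as CD2 does, rose by a log2 change of 0.49 (adjusted p = 0.0429, limma), a call lost when any of 6 single libraries was left out (Rig1 KO 2, 3 and 4, WT 1, 2 and 3, adjusted p up to 0.129) and under 9 of 19 alternatives in all. Cd96 averaged 30.3 ± 3.08 TPM in Rig1 KO and 25.0 ± 3.09 TPM in WT (log2 fold change 0.27, adjusted p = 0.0490, limma), and lost its call under 15 of 20 alternatives, among them leaving out Rig1 KO 1, 3 or 4 or WT 2, 4 or 5.

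**Figure D3:**
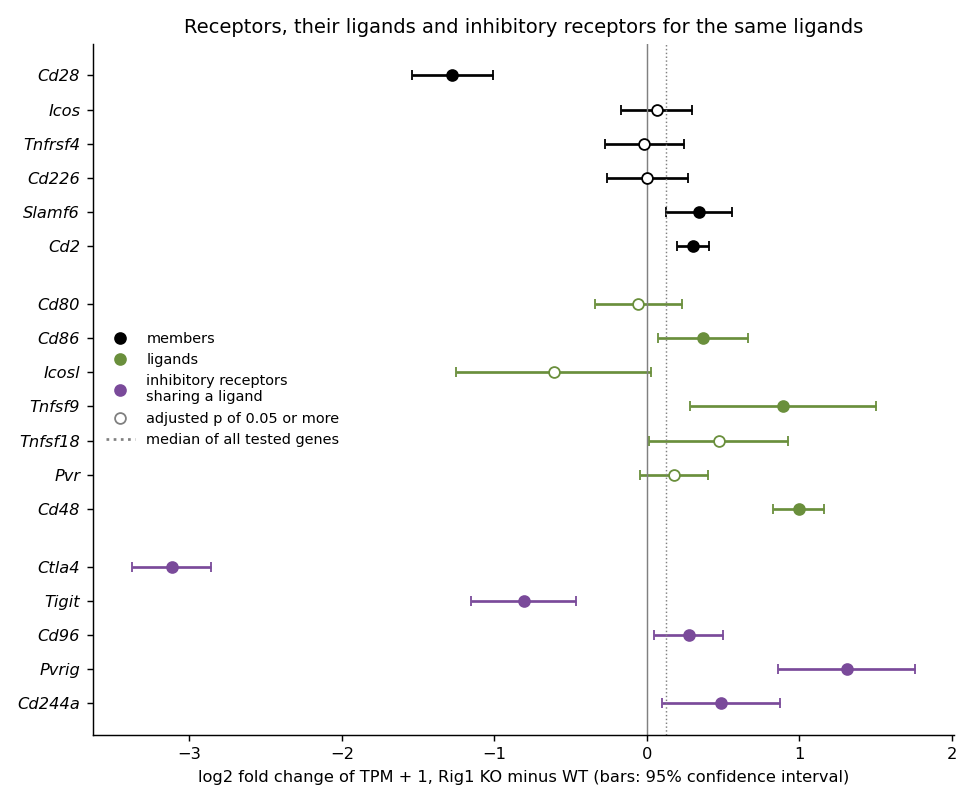
Points give the log2 fold change of TPM + 1 (Rig1 KO minus WT, horizontal axis) of each tested member, ligand and inhibitory receptor, with 95% confidence intervals; open points have an adjusted p of 0.05 or more, and the dotted line is the median of all tested genes, 0.13. Ctla4 at -3.12 and Cd28 at -1.28 lie farthest to the left, and Pvrig at 1.31 farthest to the right.

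Cd226 was set against the inhibitory receptors for CD155 within each library. The ratio of Cd226 to Tigit TPM was 4.62, 3.70, 4.16 and 4.73 in Rig1 KO, against 2.33, 3.09, 2.87, 2.16 and 1.49 in WT. All Rig1 KO libraries lay above all WT libraries, and the log2 ratio was 1.97 ± 0.152 in Rig1 KO and 1.16 ± 0.391 in WT (SD, n = 4 and 5). The difference of 0.81 had a two-sided exact permutation p of 0.0159, adjusted to 0.0238. The ratio of Cd226 to Cd96 TPM was 1.02, 1.05, 1.27 and 1.10 in Rig1 KO, against 1.29, 1.26, 1.48, 1.25 and 1.47 in WT. Rig1 KO library 3 lay within the WT range. The log2 ratio was 0.14 ± 0.139 in Rig1 KO and 0.41 ± 0.118 in WT, a difference of -0.27 (two-sided exact permutation p = 0.0476, adjusted to 0.0476), and adjusted p rose above 0.05 under 10 of 13 alternatives.

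**Figure D4:**
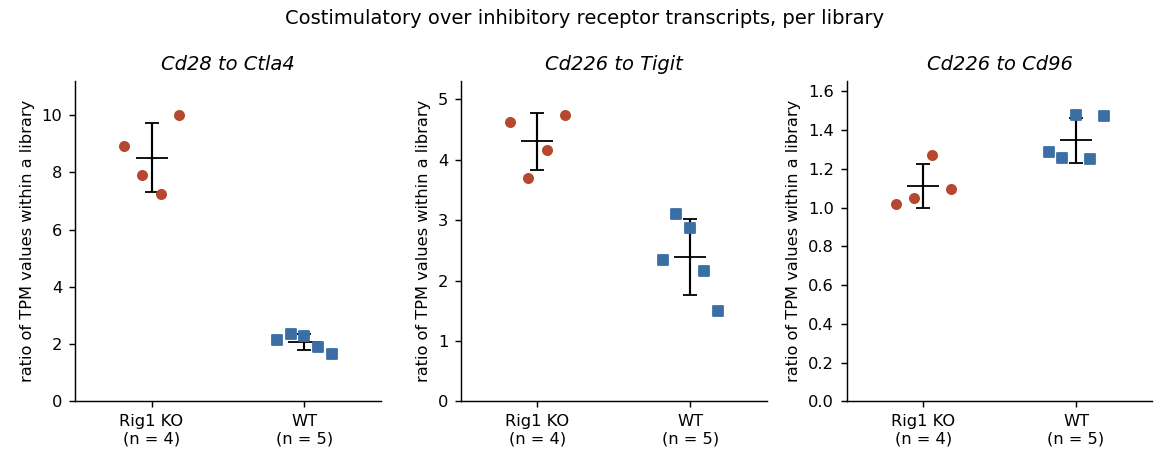
Each point is the ratio of 2 TPM values within a library (vertical axis, linear), with Rig1 KO (circles, n = 4) left of WT (squares, n = 5) and bars for mean and SD. Cd28 to Ctla4 runs from 7.23 to 9.996 in Rig1 KO and from 1.67 to 2.37 in WT, Cd226 to Tigit is higher in every Rig1 KO library, and Cd226 to Cd96 overlaps.

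A list of other costimulatory receptors was examined beside the members. Of 14 listed genes 11 were tested, and 9 rose and 2 fell, against 33.5% and 12.2% of all tested genes. The median log2 fold change of the 11 was 0.43. Tnfrsf14 (HVEM), which binds both LIGHT and the inhibitory receptor BTLA, averaged 155 ± 9.97 TPM in Rig1 KO and 83.5 ± 3.6 TPM in WT (log2 fold change 0.89, adjusted p = 1.07e-06, limma). Slamf7, a self-binding SLAM receptor of cytotoxic cells, averaged 43.6 ± 8.13 TPM in Rig1 KO and 16.0 ± 4.16 TPM in WT (log2 fold change 1.41, adjusted p = 0.000108, limma). Cd84, another SLAM receptor, rose by a log2 change of 0.51 (adjusted p = 0.000514, limma), and Tnfrsf25 (DR3), the receptor for TL1A, by 0.54 (adjusted p = 0.000781, limma). The genes that fell were Slamf1 (log2 fold change -0.55, adjusted p = 0.000818, limma) and Cd40lg (log2 fold change -0.67, adjusted p = 0.0132, limma). Scaled to T cell genes, 2 of the 11 rose and 2 fell, against 7.58% and 41.7% of all tested genes. Under median ratio scaling 7 rose and 2 fell, against 23.7% and 21.4% of all. With the B cell markers as a covariate 5 rose and none fell, against 21.5% and 5.79% of all, so Slamf1 and Cd40lg both lost their calls.

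Slamf6 lies in a run of SLAM-family genes on chromosome 1. Its measured genes are Cd244a, Slamf7, Cd48, Slamf1, Cd84 and Slamf6 in the RefSeq order of GRCm38, and genes without a value, such as Ly9, are left out. Of these 6 genes 5 rose and Slamf1 fell, against 33.5% higher and 12.2% lower of all tested genes. The size of the rise differed among the 5, with log2 fold changes between 0.34 for Slamf6 and 1.41 for Slamf7. Among these calls, that of Cd48 held under all 20 alternatives, that of Slamf6 was lost under 7 of 20 and that of Cd244a under 9 of 19. The fall of Slamf1 lost its call with the B cell markers as a covariate. Other alternatives for Slamf1, and those for Slamf7 and Cd84, are not given gene by gene here. The NK cell markers, whose sum was higher in Rig1 KO with 5 of 8 genes called higher and 3 not called, are given above beside the other cell types. Cd244a and Slamf7 are also expressed by NK cells, and the part of NK cells in these calls was not tested.

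Genes that relay the CD28 and ICOS signal mostly did not pass the test: of 20 tested, 4 rose, 3 fell and 13 were not called. Of all tested genes 33.5% rose and 12.2% fell. The median log2 fold change of the 20 was 0.06. Bcl10, part of the complex that carries the signal to NF-kB, averaged 56.3 ± 4.77 TPM in Rig1 KO and 84.7 ± 2.67 TPM in WT (log2 fold change -0.58, adjusted p = 3.61e-05, limma). Cblb, a ubiquitin ligase that restrains T cells without CD28 costimulation, fell by a log2 change of 0.35 (adjusted p = 0.00111, limma). Plcg1, a phospholipase, rose by 0.54 (adjusted p = 0.00141, limma), and Lck, the kinase that starts antigen receptor signalling, by 0.22 (adjusted p = 0.0120, limma). Under median ratio scaling 1 of the 20 rose and 8 fell, against 23.7% and 21.4% of all tested genes. Scaled to T cell genes none rose and 13 fell, against 7.58% and 41.7% of all.

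The adaptors of the tumour necrosis factor receptors and the noncanonical NF-kB pathway were mainly lower. Of 12 tested, 1 rose, 7 fell and 4 were not called, with a median log2 fold change of -0.30. Of all tested genes 33.5% rose and 12.2% fell. Nfkb2, the precursor of p52, averaged 102 ± 5.51 TPM in Rig1 KO and 170 ± 25.6 TPM in WT (log2 fold change -0.73, adjusted p = 0.000191, limma). Birc2 (cIAP1), a ubiquitin ligase bound to TRAF2, fell by a log2 change of 0.56 (adjusted p = 0.000173, limma), and Traf5, an adaptor of OX40 and CD27, by 0.40 (adjusted p = 0.000159, limma). Traf1, an adaptor of 4-1BB, was the gene that rose, by 0.46 (adjusted p = 0.000163, limma). Under median ratio scaling 10 of the 12 fell, against 21.4% of all tested genes, and with the B cell markers as a covariate 3 fell, against 5.79% of all.

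Among 12 adaptors and partners of SLAM receptors, CD2 and CD226, 7 rose, 2 fell and 3 were not called. Of all tested genes 33.5% rose and 12.2% fell. The median log2 fold change of the 12 was 0.31. Sh2d1a (SAP), which binds the tail motifs of SLAMF6 shown above, had 23.4, 20.7, 30.1 and 26.3 TPM in Rig1 KO, against 14.8, 13.6, 14.0, 14.99 and 11.4 TPM in WT. Every Rig1 KO library lay above every WT library, and Sh2d1a rose by a log2 change of 0.82 (adjusted p = 0.000203, limma). Fyn, the kinase that SAP recruits, rose by 0.42 (adjusted p = 0.00304, limma). Itgal and Itgb2, the chains of the integrin LFA-1 with which CD226 associates, rose by 0.37 (adjusted p = 0.00220, limma) and 0.31 (adjusted p = 0.00292, limma). Under median ratio scaling 5 of the 12 rose and 3 fell, against 23.7% and 21.4% of all tested genes. Scaled to T cell genes 1 rose and 3 fell, against 7.58% and 41.7% of all.

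**Figure D5:**
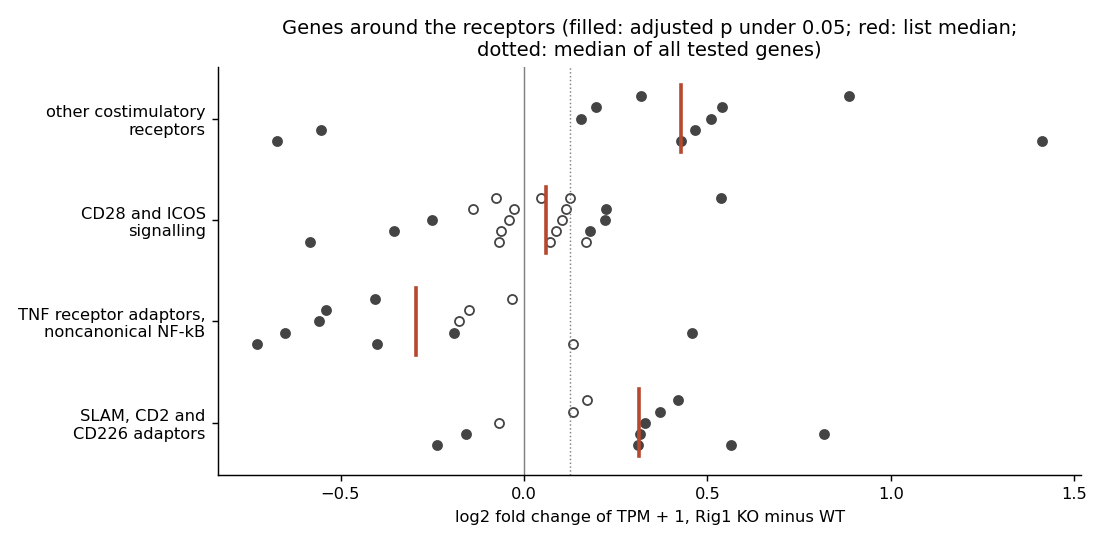
Each point is a tested gene of 4 lists around the receptors, placed by its log2 fold change of TPM + 1 (Rig1 KO minus WT, horizontal axis); filled points have an adjusted p under 0.05, red bars are list medians and the dotted line is the median of all tested genes. The list medians are 0.43, 0.06, -0.30 and 0.31 from top to bottom.

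Immediate early genes, which antigen receptor and costimulatory signals induce within minutes, were lower throughout. All 12 tested fell, against 12.2% of all tested genes. Their median log2 fold change was -3.01, and their summed TPM ran from 2155 to 2269 in Rig1 KO and from 13064 to 14341 in WT. Jun, a subunit of the AP-1 factor, averaged 172 ± 7.81 TPM in Rig1 KO and 1634 ± 110.1 TPM in WT. Their part in the lower Cd28 and Ctla4 transcripts was not tested.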

How the data were processed

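Poly(A) RNA of splenic CD8+ T cells was sequenced in 4 Rig1 KO and 5 WT libraries, grouped by their titles. The authors deposited TPM values, 1 column per library, per the file headers; fastp and featureCounts with mm39 (GRCm39) are named in the submitters' processing notes without versions. The aligner, the annotation and the gene lengths are not given in the sources used here. Whole reads were recovered from the ratios of TPM values between libraries for 100% of genes (relative tolerance 2e-12); a common divisor makes them lower bounds, and they gave totals of 15496262 to 17893558 reads. The implied lengths lay within 1% of the genomic span, introns included, for 96.6% of 17486 genes, so TPM is not compared between genes.

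Log2(TPM + 1) of genes that reached 1 TPM in 4 or more libraries was fitted in limma 3.58.1 under R 4.3.3 (mean-variance trend, no covariate, two-sided, Benjamini-Hochberg over 10540 genes, threshold 0.05). Log2 fold changes are Rig1 KO minus WT and understate the change of low genes. Within-library ratios were tested with exact permutation tests in scipy. limma-voom on the recovered reads called 5086 genes, against 4817 on TPM. Procedures were tested on simulated data. Alternatives were quantile and median ratio scaling, pseudocounts of 0.1 and 0.5, a filter at a mean TPM of 5 or no filter, a B cell marker covariate, the title number as a block, leaving out libraries, and, added after the data had been seen, scaling to T cell markers.

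The members and gene lists were chosen with earlier results of these data known. By rule, the text names all members, ligands and inhibitory receptors sharing a ligand, Ddx58, the genes of each other list with the smallest p (up to 4), and the 3 profiles closest to any member with a log2 change of at least 0.5 in size; other genes, such as the locus neighbours, Slamf1 and Cd40lg, were named after their values were seen. Ly9, Trac, Foxp3 and Ms4a1 of the lists were not analysed here. Coding sequences came from GENCODE M21 (GRCm38), an older build than the authors', and the order of neighbouring genes from RefSeq on the same build.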

Additional observations from a re-analysis of the deposited data

Results flagged for a closer look

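In 40 groups of libraries (20 genes in each genotype), 4 held a library far from the rest of its group; chance gives about 1 in 20 groups. Cd2 in Rig1 KO 1 stood at 353.7 TPM, while the other 3 Rig1 KO libraries lay between 332.8 and 335.5 TPM. Ctla4 in Rig1 KO 3 stood at 7.587 TPM, and the others of Rig1 KO lay between 4.762 and 5.238 TPM. Cd48 in WT 3 stood at 89.97 TPM, and the other WT libraries lay between 73.32 and 73.99 TPM. Cd96 in WT 5 was low, at 19.58 TPM, and the other WT libraries lay between 25.55 and 27.11 TPM. The groups of Cd2, Ctla4 and Cd48 did not overlap with these libraries included, and those of Cd96 did.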

How the results depend on the processing

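The count of changed genes was 4817 (3526 higher, 73.2% of calls) and stayed within 1.5 times of that under 19 of 20 alternatives; with the B cell marker covariate it was 2874. The share of higher calls was 52.5% under median ratio scaling, 53.9% under quantile scaling, 61.8% with limma-voom and 15.4% relative to T cell markers, where the median of all genes moved to -0.22. Members that fell numbered 3 relative to T cell markers. Members that rose numbered 1 under median ratio scaling, quantile scaling and without WT 4 and WT 5, and 0 with the B cell covariate and relative to T cell markers; leaving out single libraries gave 1 to 2. The cause was not tested.

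Calls of Cd28, Ctla4, Cd48 and Pvrig held under all 20 alternatives. Signs turned for uncalled genes: Icos stood at -0.057 (median ratio), -0.054 (quantile), -0.0090 (limma-voom) and -0.28 (T cell markers), and leaving out single libraries gave -0.034 to 0.14. Tnfrsf4 stood at 0.016 (replicate block) and 0.027 (without WT 4 and WT 5), and leaving out single libraries gave -0.10 to 0.055. Cd226 stood at -0.12 (median ratio, quantile and B cell covariate), -0.047 (replicate block), -0.084 (without WT 4 and WT 5), -0.069 (limma-voom) and -0.34 (T cell markers); leaving out single libraries gave -0.089 to 0.085. Relative to T cell markers signs also turned for genes called higher, with Slamf6 at -6.2e-05, Cd2 at -0.038 and Cd96 at -0.067, and for the uncalled Pvr, at -0.16. With the B cell covariate Cd80 stood at 0.22 and Icosl at 0.58, and Cd80 stood at 0.044 without WT 4 and WT 5.

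No sign of pairing by title number was seen: correlations of same-numbered libraries were 0.09, -0.02, -0.08 and -0.11, and 1 of 4 pairs correlated best with its own number. These correlations were not tested, so whether the numbers pair the libraries is not known. With the replicate block 4755 genes changed, Cd28 stood at -1.35, and Cd96 lost its call (adjusted p = 0.0750, limma). The ratio differences under the block were 1.77 (Cd28 to Ctla4), 0.66 (Cd226 to Tigit) and -0.24 (Cd226 to Cd96), each with an exact p of 0.125, the smallest 4 pairs can give. Without WT 4 and WT 5 they were 1.70, 0.58 and -0.26 (exact permutation, smallest possible p 0.0571 before adjustment). Leaving out single libraries gave 1.76 to 1.89, 0.66 to 0.91 and -0.34 to -0.23, with adjusted p (exact permutation) up to 0.0536, 0.0536 and 0.107; with 3 Rig1 KO libraries the smallest p is 0.0357. Depth limited Tnfrsf9, with at most 2 reads per library.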
